A study of Rattus norvegicus with 22 samples.

Results

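The 33 genes described here encode the enzymes and carriers of fatty acid oxidation, the pathway that shortens fatty acids to acetyl-CoA. They are 18 genes of mitochondrial oxidation, 7 of peroxisomal oxidation, 3 whose products are found in both organelles (Acad11, Eci2 and Crat) and 5 of fatty acid activation (Acsl1, Acsl3, Acsl4, Acsl5 and Slc27a2). The genes were listed by function, with earlier results of these data known. All 33 were among the 17334 genes measured in the kidney and passed the filter on low counts that left 12867 genes. Kidney RNA came from 22 male PKD/Mhm (Cy/+) rats aged 8 months, a strain with a heterozygous Cy mutation and progressive cystic kidney disease. The groups were 6 untreated rats, 6 rats given human adipose-derived stromal cells (ASC) intraperitoneally (i.p. ASC), 6 given ASC intravenously (i.v. ASC) and 4 given conditioned medium (CM), whose source cells the sample labels do not name. Treatments were given once per month for 6 months. Every rat, treated or not, carried the Cy mutation, and rats without it were not analysed here. The RNA was of the whole left kidney, so fewer cells of a type and less RNA per cell cannot be told apart.

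The proximal tubule takes most of its energy from fatty acids, and its cells are rich in both mitochondria and peroxisomes. Acyl-CoA synthetases activate a fatty acid, the carnitine shuttle carries the long-chain acyl group into the mitochondrial matrix, and a cycle of dehydrogenase, hydratase, second dehydrogenase and thiolase shortens it. Peroxisomes shorten very long, branched and dicarboxylic acids by a parallel set of enzymes and pass the products on as carnitine esters. Loss of this pathway is a known feature of the injured tubule. The comparisons asked whether these transcripts differed between treated and untreated rats and how much those of the 2 organelles varied over the rats. They also asked how each gene followed Slc34a1, the phosphate transporter that marks the proximal tubule, over the rats.

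The estimated counts of a rat summed to between 12195682 and 14734772. Slc34a1 ranged from 227 TPM (transcript abundance scaled by length and library size) in untreated rat 1 to 1405 TPM in i.v. ASC rat 1. In 5 rats Kap, an androgen-regulated gene of the proximal tubule, lay between 8411 and 9306 TPM, against at most 4838 TPM in the other 17. These were i.p. ASC rats 1 and 3, i.v. ASC rats 1 and 3 and CM rat 1, so none was untreated. Kap is itself 1 of the 12 proximal tubule markers listed. Over the other 11 the summed TPM ran from 2163 to 3378 in the same 5 rats and from 924 to 2640 in the other 17, so the ranges overlapped. The summed TPM of 4 macrophage markers ran from 31.3 to 71.0 (88.9 to 183), of 4 fibroblast markers from 161 to 297 (301 to 766) and of 4 podocyte markers from 54.0 to 131 (63.7 to 344). Markers of the thick ascending limb summed to 2973 to 5538 TPM (median 4137) in the 5 rats. They summed to 1330 to 4233 TPM (median 2590) in the other 17, so these ranges overlapped, with the higher median in the 5 rats. Slc5a2, the glucose transporter of the early proximal tubule, was at 17 to 38.9 TPM in them and at 14.8 to 148 TPM in the others. In 4 i.v. ASC rats (1, 3, 4 and 5) the urothelial gene Upk1a reached 9.11 to 189 TPM, while every other rat was at or below 6.90 TPM. Fat cells also oxidise fatty acids, and the summed TPM of 6 adipocyte markers was 83.5 to 102 in the 5 rats against 37.7 to 78.4 in the other 17. Of these markers Plin1, Lep and Ucp1 stayed at or below 0.803, 0.266 and 0.752 TPM in all 22 rats. Cidec was at 43.4 to 65.8 TPM in the 5 rats and 3.24 to 35.6 TPM in the others. Adipoq was not higher in the 5 rats, at 17.7 to 29.4 TPM against 17.3 to 39.6 TPM in the others. The part of these other cell types in the results was not tested.

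In TPM, which is scaled by transcript length and so can be compared between genes, the mitochondrial genes stood highest. The median over the 18 mitochondrial genes of their median TPM was 142, against 38.0 for the 7 peroxisomal genes, 80.7 for the 3 of both organelles and 47.8 for the 5 activating genes. Electron transfer led the list. Etfb and Etfa, the subunits of the flavoprotein that takes electrons from the acyl-CoA dehydrogenases, had medians of 423 and 243 TPM, and Etfdh, which passes them to the respiratory chain, 54.0 TPM. Among the dehydrogenases that start each cycle, the medium-chain enzyme Acadm had the highest median (242 TPM), followed by the long-chain Acadl (166 TPM), the very-long-chain Acadvl (104 TPM) and the short-chain Acads (61.5 TPM). The carnitine shuttle was lower. Its outer membrane step Cpt1a, the control point for entry, had a median of 75.1 TPM, the carrier Slc25a20 59.8 TPM and the inner membrane step Cpt2 25.7 TPM, the lowest of the mitochondrial genes. Further steps of the matrix cycle had medians from 71.4 TPM for the thiolase Acaa2 to 197 TPM for the thiolase Acat1, with the hydratase Echs1 at 108 TPM and the dehydrogenase Hadh at 167 TPM. For unsaturated fatty acids, the isomerase Eci1 was at 176 TPM and the reductase Decr1 at 118 TPM.

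**Figure D1:**
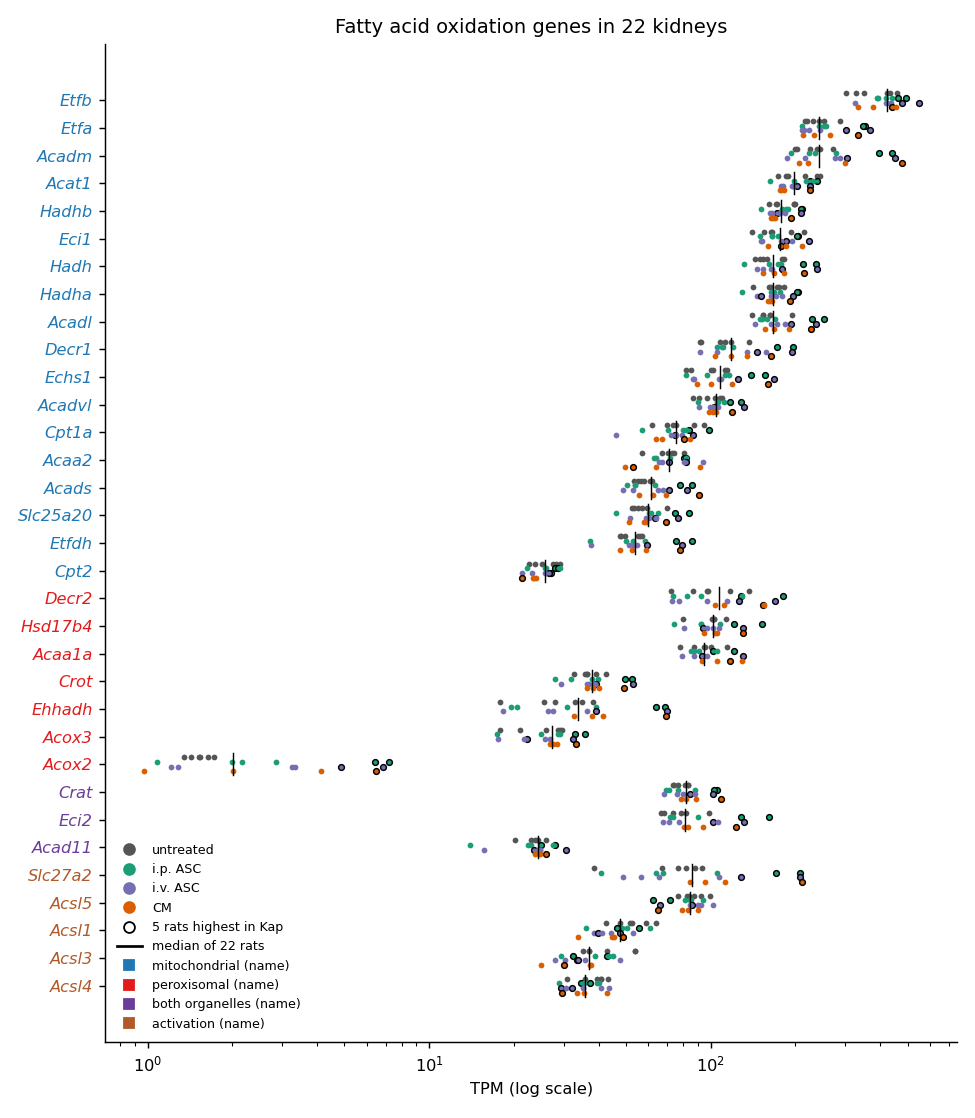
TPM of the 33 genes (log scale) in 22 kidneys, 1 point per rat coloured by group, ringed for the 5 rats highest in Kap, with a line at the median of 22 rats. Etfb has the highest median (423 TPM) and Acox2 the lowest (2.00 TPM), and the ringed rats lie at the right of most rows.

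Peroxisomal transcripts had medians from 2.00 to 107 TPM. The reductase Decr2 (median 107 TPM), the multifunctional enzyme Hsd17b4 (102 TPM) and the thiolase Acaa1a (95 TPM) were the most abundant, ahead of the carnitine octanoyltransferase Crot (38.0 TPM), the multifunctional enzyme Ehhadh (33.9 TPM) and the acyl-CoA oxidase Acox3 (27.2 TPM). Acox2, the oxidase for branched chains and bile acid intermediates, was at 2.00 TPM. Of the genes of both organelles, the carnitine acetyltransferase Crat was at 81.5 TPM, the isomerase Eci2 at 80.7 TPM and the dehydrogenase Acad11 at 24.4 TPM. Among the activating genes, Slc27a2, a very-long-chain acyl-CoA synthetase and fatty acid transporter, had a median of 85.9 TPM and Acsl5 84.4 TPM, followed by Acsl1 (47.8 TPM), Acsl3 (37.0 TPM) and Acsl4 (35.6 TPM).

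Most of these genes varied little from rat to rat. The highest rat exceeded the lowest by a median of 1.89-fold over the 33 genes, and the SD of log2 TPM had a median of 0.238, close to the 0.231 of all genes tested. A few ranges were far wider. Acox2 spanned 7.43-fold, Slc27a2 5.48-fold and Ehhadh 3.89-fold, while the least variable gene, Cpt2, spanned 1.36-fold. For 26 of the 33 genes the highest rat was among the 5 rats highest in Kap, most often i.p. ASC rat 1 (12 genes) and i.v. ASC rat 1 (10 genes). I.p. ASC rat 2 was the lowest for 13 genes. How many of all genes had their highest rat among the 5 rats highest in Kap was not counted.

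Hadha and Hadhb, the alpha and beta subunits of the mitochondrial trifunctional protein, had medians of 166 and 178 TPM. Their ratio stayed between 0.854 and 1.03, a 1.21-fold span over 22 rats, whereas the ratio of Etfa to Etfb, the subunits of the electron carrier, ran from 0.484 to 0.756, a 1.56-fold span. In the RefSeq annotation of GRCr8 the Hadha and Hadhb genes start back to back on chromosome 6 with 300 bases between their starts, at positions 31907801 and 31907500. The 250 bases before the Hadha start (chr6:31907551-31907800 on the plus strand) are shown because they lie within this shared interval.
Hadha: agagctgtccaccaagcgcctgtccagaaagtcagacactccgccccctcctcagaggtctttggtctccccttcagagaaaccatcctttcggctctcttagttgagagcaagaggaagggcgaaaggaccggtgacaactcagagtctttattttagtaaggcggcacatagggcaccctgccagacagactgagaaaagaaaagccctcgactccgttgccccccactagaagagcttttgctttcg

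No gene passed the threshold between treated and untreated rats. In each of the 3 comparisons edgeR's quasi-likelihood test called 0 of the 33 genes and 0 of the 12867 genes tested (percent called 0) at an adjusted p below 0.05. At an unadjusted p below 0.05 it passed 2 of the 33 genes in each comparison, and of all genes 500 with i.p. ASC, 1133 with i.v. ASC and 849 with CM. DESeq2 called 0, 22 and 5 genes of all, and 0 of the 33. The fitted log2 fold changes were above 0 for 30 of 33 genes with i.p. ASC (median 0.24), 30 of 33 with i.v. ASC (median 0.21) and 25 of 33 with CM (median 0.21), where all genes had medians of -0.014, -0.011 and -0.0029. For none of the 33 did all treated rats lie above, or all lie below, the untreated rats; of all genes, 0.0155%, 0% and 0.264% lay above and 0.163%, 0.171% and 1.12% below. The 3 comparisons share the 6 untreated rats.

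A single rat moved each median by more than 1.5 times. It was 0.13 without i.p. ASC rat 1, 0.11 without i.v. ASC rat 1 and 0.053 without CM rat 1, each in the comparison of its own group. The medians were nearer to 0 without the 5 rats highest in Kap. The medians were then -0.0051, 0.017 and 0.064 in the order i.p. ASC, i.v. ASC and CM, with 15, 19 and 21 of 33 genes above 0. All 5 were treated rats, and the highest rat was among them for 26 of the 33 genes. Leaving them out took high values from the treated side only, so a fall of the medians was built into the choice. With Slc34a1 as a covariate the medians were 0.15, 0.16 and 0.048. On the scale of log2(TPM + 1) the medians were 0.13, 0.075 and 0.11, with 28, 24 and 24 genes above 0, while the median of all genes stood at -0.098, -0.12 and -0.066. Without the 4 i.v. ASC rats with urothelial genes, 10 of 33 genes were above 0 in the i.v. ASC comparison (median -0.072). These 4 rats include 2 of the 5 highest in Kap.

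**Figure D2:**
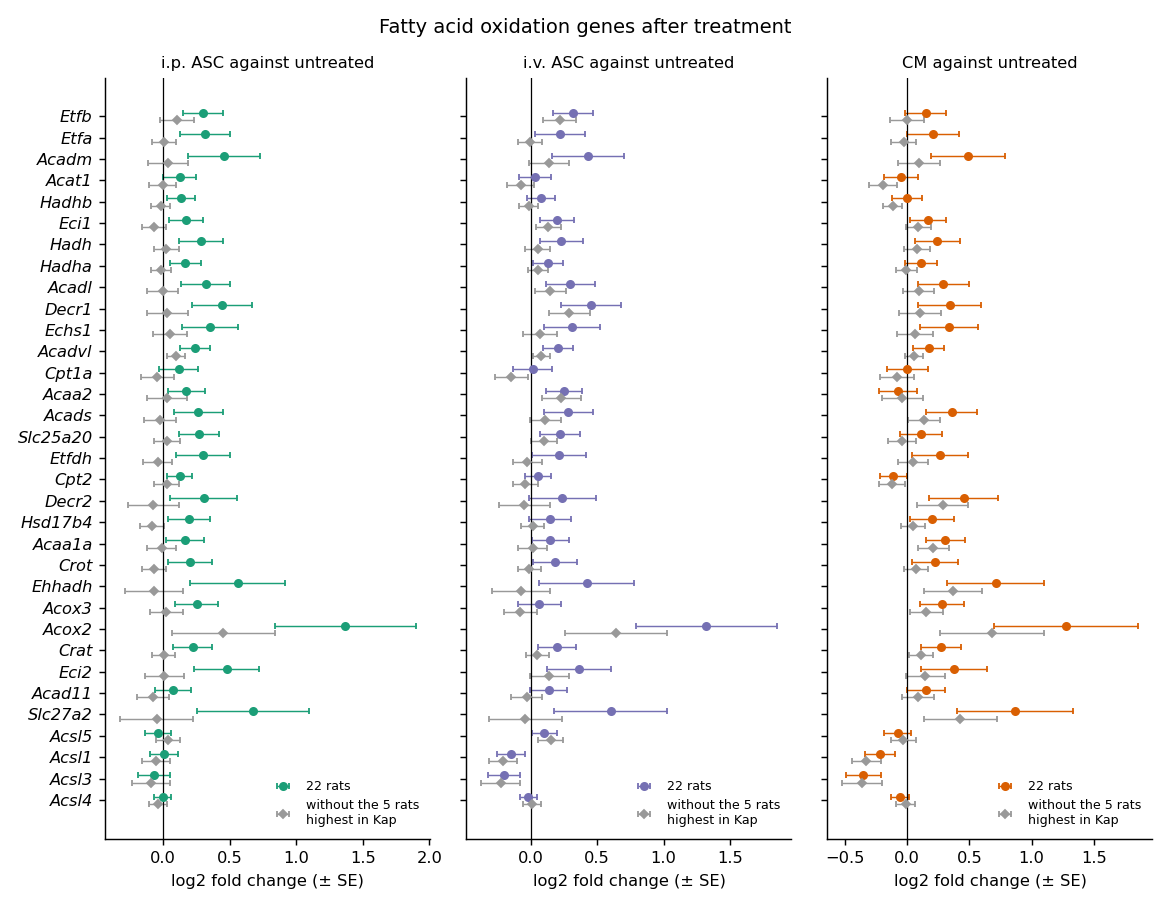
Log2 fold change (± SE, edgeR) of each of the 33 genes in the 3 treated groups against untreated rats, over 22 rats (coloured circles) and without the 5 rats highest in Kap (grey diamonds). The circles lie mostly right of 0 with medians of 0.24, 0.21 and 0.21, the diamonds around 0 with medians of -0.0051, 0.017 and 0.064. All 5 rats left out were treated.

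Acox2 had the largest fitted difference. Its TPM was 1.35 to 1.71 (median 1.53) in untreated rats, 1.08 to 7.22 (median 2.51) with i.p. ASC and 1.21 to 6.88 (median 3.30) with i.v. ASC, and 6.49, 4.13, 2.01 and 0.972 in the 4 CM rats. The untreated rats lay close together inside the range of every treated group, and 5, 4 and 3 treated rats of the groups were above all of them. The log2 fold change was 1.37 (SE 0.53, edgeR adjusted p = 0.771) with i.p. ASC, 1.32 (SE 0.53, adjusted p = 0.523) with i.v. ASC and 1.27 (SE 0.58, adjusted p = 0.711) with CM. Without the 5 rats highest in Kap it was 0.45, 0.64 and 0.68, without CM rat 1 the CM value was 0.67, and without the 4 i.v. ASC rats with urothelial genes the i.v. ASC value was -0.22.

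Acadm, the medium-chain dehydrogenase, was at 200.04 to 273 TPM (median 233) in untreated rats, 193 to 439 (median 256) with i.p. ASC and 186 to 451 (median 281) with i.v. ASC. The CM rats had 479, 299.5, 222 and 206 TPM. I.p. ASC rats 1 and 3, i.v. ASC rat 1 and CM rat 1 stood apart at 397 to 479 TPM, while each treated group also overlapped the untreated rats. The log2 fold changes were 0.46 (SE 0.27), 0.43 (SE 0.27) and 0.49 (SE 0.30), with edgeR adjusted p-values of 0.771, 0.538 and 0.743. Ehhadh, the peroxisomal enzyme of the hydratase and dehydrogenase steps, was at 17.9 to 38.2 TPM (median 30.4) in untreated rats, 19.5 to 68.9 (median 35.0) with i.p. ASC, 18.3 to 69.7 (median 31.9) with i.v. ASC and 69.3, 41.3, 32.6 and 37.8 with CM. The same 4 rats stood apart at 64.1 to 69.7 TPM, and the groups overlapped below them. Its log2 fold changes were 0.56 (SE 0.36), 0.42 (SE 0.35) and 0.71 (SE 0.39), with adjusted p-values of 0.771, 0.608 and 0.717. Without i.p. ASC rat 1, i.v. ASC rat 1 or CM rat 1, the value of that rat's comparison was 0.28, 0.24 and 0.086 for Acadm and 0.31, 0.099 and 0.36 for Ehhadh.

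Cpt1a, the entry step, showed no such tail. It was at 62.1 to 94.6 TPM (median 74.3) in untreated rats, 57.1 to 98.5 (median 80.9) with i.p. ASC, 46.0 to 86.5 (median 74.8) with i.v. ASC and 80.2, 63.9, 84.7 and 67.2 with CM. All 4 groups overlapped over most of their range, and the log2 fold changes were 0.12 (SE 0.14), 0.015 (SE 0.14) and 0.0035 (SE 0.16). Without the 5 rats highest in Kap all 3 were below 0, and the last 2 also by limma on log2(TPM + 1). Among the genes with the smallest unadjusted p in a comparison, edgeR gave 0.24 (SE 0.11, adjusted p = 0.771) for Acadvl and 0.30 (SE 0.15, adjusted p = 0.771) for Etfb with i.p. ASC, and 0.32 (SE 0.15, adjusted p = 0.523) for Etfb and 0.45 (SE 0.23, adjusted p = 0.523) for Decr1 with i.v. ASC. With CM the fitted value was 0.31 (SE 0.16, adjusted p = 0.711) for Acaa1a, and 0.20 without CM rat 1. Acsl3, a synthetase of lipid droplets and the endoplasmic reticulum, was on the other side of 0 with CM at -0.35 (SE 0.14, adjusted p = 0.711), from 35.2 to 54.0 TPM in untreated rats against 30.2, 24.9, 37.5 and 37.3 TPM.

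Most genes of the pathway rose with Slc34a1 over the rats. In a fit of each gene on log2(Slc34a1 TPM + 1) with the groups as a factor, 23 of the 33 rose with Slc34a1 (10.2% of all genes did) and 1 fell (6.86% of all genes). The median slope was 0.24 log2 units per log2 unit of Slc34a1, against -0.012 over all genes. Of the 7 peroxisomal genes 7 rose, with slopes from 0.24 to 0.76 (median 0.32), and of the 18 mitochondrial genes 12 rose, with all 18 slopes between 0.10 and 0.40 (median 0.21). All 3 genes of both organelles rose, while of the 5 activating genes Slc27a2 rose and Acsl5 fell. Other marker lists moved with Slc34a1 in the same fit. Of 11 other proximal tubule genes tested 7 rose and 0 fell (list median 0.59). Of 5 tubule injury genes 3 fell (Vcam1, Lcn2 and Spp1, list median -0.24), and of 4 fibroblast genes 2 fell (Col1a1 and Col3a1, median -0.34). Of 3 adipocyte genes tested Cidec rose (list median -0.087). Their part in the slopes was not tested.

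**Figure D3:**
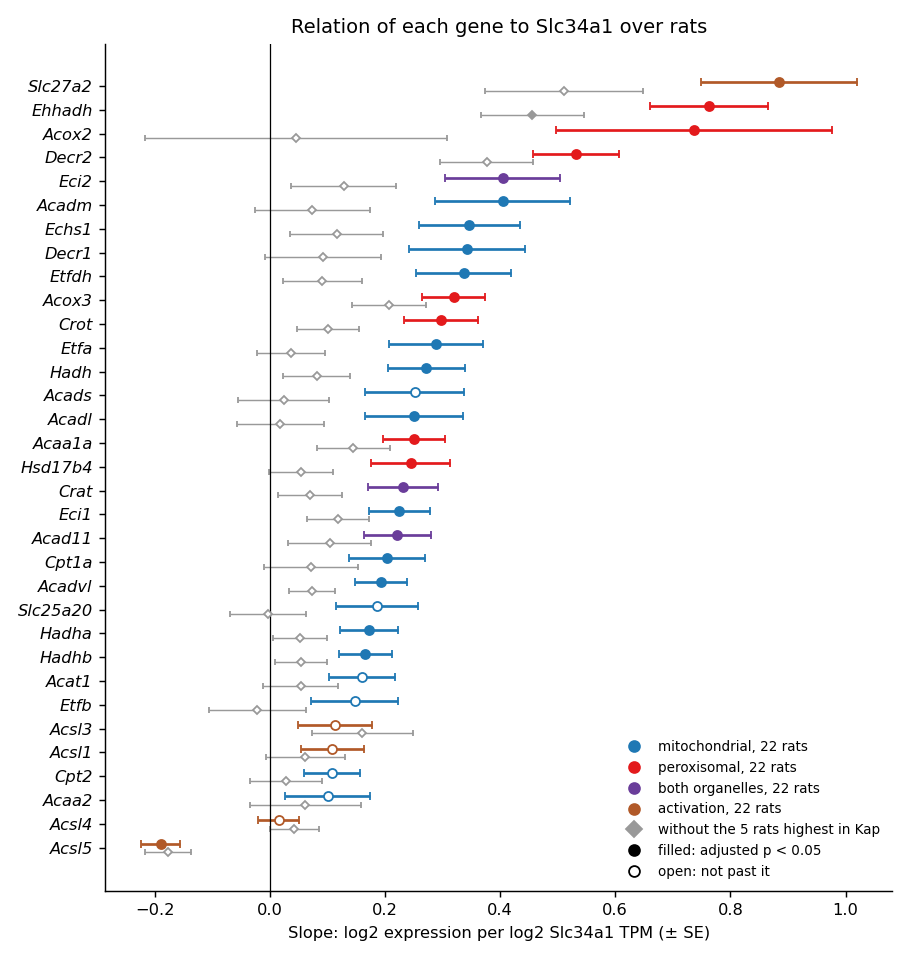
Slope (± SE, edgeR) of each gene on log2 Slc34a1 TPM with the groups as a factor, over 22 rats (coloured by class; filled, adjusted p below 0.05) and without the 5 rats highest in Kap (grey diamonds). Slc27a2 is steepest at 0.88 and Acsl5 lies at -0.19; most grey diamonds of mitochondrial genes lie near 0.

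The steepest gene was Slc27a2. It was at 38.5 to 93.3 TPM (median 79.2) in untreated rats, 40.9 to 208 (median 86.5) with i.p. ASC and 48.9 to 207 (median 86.0) with i.v. ASC, and at 211, 112, 84.2 and 95.7 TPM in the CM rats. The lowest value was that of untreated rat 1, the rat lowest in Slc34a1, and the 5 rats highest in Kap held the 5 highest values. Its slope was 0.88 (SE 0.14, edgeR adjusted p = 0.000399), which is 1.85-fold per doubling of Slc34a1. Over 22 rats Pearson's r was 0.869 and Spearman's rho 0.857, each with a permutation p of 1e-05, the smallest that the permutations can give. Ehhadh had a slope of 0.76 (SE 0.10, adjusted p = 0.000145), with r of 0.890 and rho of 0.903, each at the same permutation p.

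Decr2, the peroxisomal reductase for polyunsaturated chains, had the highest correlation (r = 0.913, rho = 0.930, each with a permutation p of 1e-05). It was at 72.1 to 137 TPM (median 97.1) in untreated rats, 73.4 to 181 (median 110.0) with i.p. ASC and 72.8 to 169 (median 106) with i.v. ASC, and at 154, 111, 103 and 154 TPM in the CM rats. High values were not confined to the rats highest in Kap, since CM rat 4 (Kap 769 TPM, Slc34a1 1146 TPM) matched CM rat 1 and untreated rat 4 (Kap 981 TPM, Slc34a1 1156 TPM) was the highest untreated rat. The slope of Decr2 was 0.53 (SE 0.074, edgeR adjusted p = 0.000205). Acaa1a, the thiolase that ends the peroxisomal cycle, had a slope of 0.25 (SE 0.054, adjusted p = 0.00427), r of 0.818 (permutation p = 2e-05) and rho of 0.776 (permutation p = 5e-05). Crat, which exports short acyl groups as carnitine esters, had a slope of 0.23 (SE 0.061, adjusted p = 0.0148), r of 0.779 (permutation p = 3e-05) and rho of 0.817 (permutation p = 1e-05).

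Acsl5 ran the other way. This synthetase of the mitochondrial outer membrane and endoplasmic reticulum was at 76.5 to 99.8 TPM (median 85.7) in untreated rats, 62.4 to 93.7 (median 82.9) with i.p. ASC and 66.0 to 102 (median 87.7) with i.v. ASC, and at 65.2, 82.9, 90.1 and 79.0 TPM in the CM rats. The groups overlapped, and the low values were those of i.p. ASC rat 1, CM rat 1, i.v. ASC rat 1 and i.p. ASC rat 3. Its slope was -0.19 (SE 0.034, edgeR adjusted p = 0.00126), r was -0.819 and rho -0.818, each with a permutation p of 1e-05. The other long-chain synthetases were not called, with slopes of 0.11 (SE 0.054) for Acsl1, 0.11 (SE 0.064) for Acsl3 and 0.016 (SE 0.035) for Acsl4 and r of 0.162, 0.0962 and -0.0673 (permutation p = 0.474, 0.670 and 0.766). Acaa2, the mitochondrial thiolase, had a slope of 0.10 (SE 0.073, adjusted p = 0.363) and r of 0.129 (permutation p = 0.566).

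**Figure D4:**
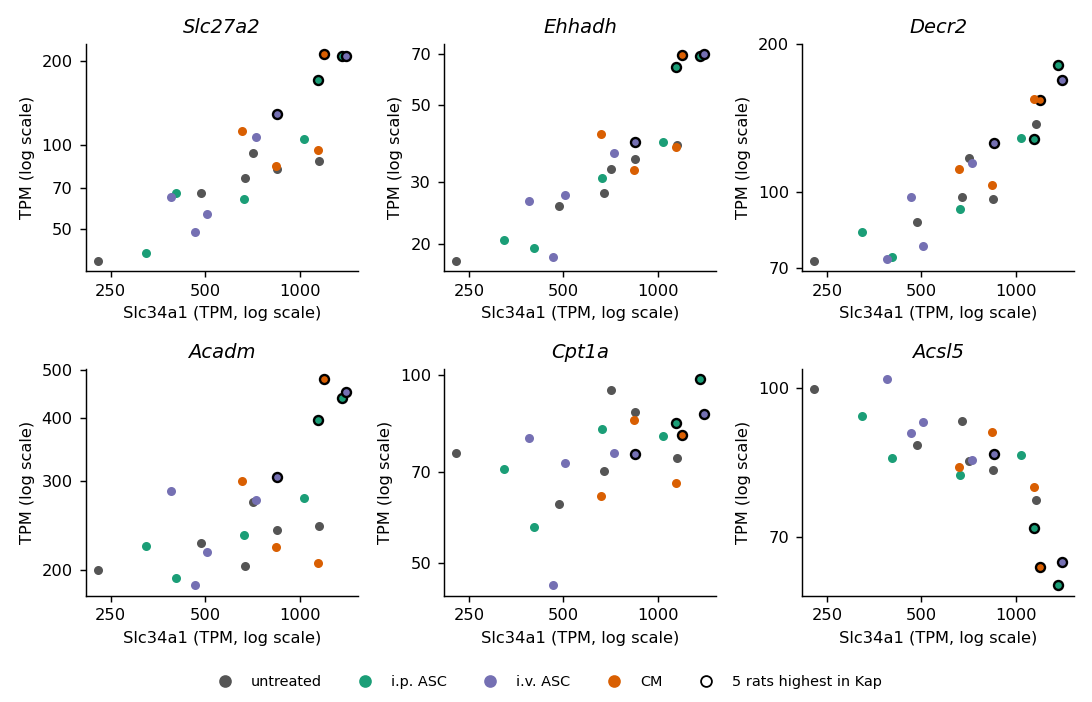
TPM of 6 genes against Slc34a1 TPM (both log scale), 1 point per rat coloured by group and ringed for the 5 rats highest in Kap. Slc27a2, Ehhadh and Decr2 climb along the whole range (r of 0.869, 0.890 and 0.913), Acsl5 descends (r = -0.819), and 4 ringed rats stand above all others in Acadm.

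Over the 33 genes, tested together with all others, the permutation test called 22 with a positive r (9.04% of all genes) and 1 with a negative r (6.7%). Their median r was 0.647, 0.646 after centring on the group means and 0.694 without untreated rat 1 and i.p. ASC rat 5, the rats farthest from the median of Slc34a1. The adjusted p was 0.000613 for r of each of Decr2, Ehhadh, Slc27a2 and Acsl5, 0.000978 for Acaa1a and 0.00124 for Crat. Without those 2 rats r was 0.930, 0.875, 0.818 and -0.803 for the first 4, 0.794 for Acaa1a and 0.790 for Crat.

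The counts were lower without the rats highest in Kap. In the other 17 rats 1 of the 33 genes rose (0.287% of all genes) and 0 fell (0.0388%). The gene was Ehhadh (slope 0.46, SE 0.089, edgeR adjusted p = 0.0359). The slopes were 0.51 (SE 0.14) for Slc27a2, 0.38 (SE 0.081) for Decr2, 0.15 (SE 0.064) for Acaa1a and -0.18 (SE 0.040) for Acsl5, with adjusted p-values of 0.152, 0.0669, 0.371 and 0.0883. The median over the 18 mitochondrial genes was 0.058 and over the 7 peroxisomal genes 0.15. In the same 17 rats the permutation test without the group factor called a positive r for 4 genes (1.17% of all genes), namely Decr2 (0.876), Ehhadh (0.872), Slc27a2 (0.831) and Acaa1a (0.761), and a negative r for Acsl5 (-0.769; 0.132% of all genes). It called none of the 18 mitochondrial genes, whose r had a median of 0.348 (0.168 over all genes) and a highest value of 0.620. By the same test 5 of the 18 were at an unadjusted p below 0.05. The share of all genes at that p was not counted. Without i.v. ASC rat 1 alone, 9 of 33 genes rose and 1 fell (4.51% and 1.75% of all genes). Without i.p. ASC rat 1, 14 rose and 1 fell (6.74% and 3.7%), and without the 4 i.v. ASC rats with urothelial genes 4 rose and 1 fell (1.83% and 0.5%).

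Other proximal tubule genes gave different counts. Fitted on Lrp2, the endocytic receptor megalin, 27 of the 33 rose and 1 fell (17.6% and 19% of all genes), and on Kap 27 rose and 0 fell (17% and 15.4%). Fitted on Slc5a2, 0 rose and 14 fell (12.5% and 14.3%). With Slc34a1 and Slc5a2 in the same fit, 27 rose and 1 fell with Slc34a1 (14.9% and 14.1%), while 1 rose and 22 fell with Slc5a2 (17.3% and 19.2%). The correlations with Kap were read in the 17 rats outside its top 5, for genes chosen after their values were seen. There the permutation test called a positive r with Kap for 2 of the 33 genes and for 366 of 12866 genes. It called a negative r for 0 of the 33 and for 317 of all. Slc27a2 was called with both markers (r of 0.698 with Kap, permutation adjusted p = 0.0369, and 0.831 with Slc34a1), and Ehhadh had r of 0.520 and 0.872. Acox2 had r of 0.723 with Kap (rho 0.804, permutation p = 0.00101, adjusted p = 0.0266) and 0.0912 with Slc34a1, and Acadm 0.667 (adjusted p = 0.0532) and 0.323. Decr2 had 0.282 with Kap and 0.876 with Slc34a1, and Acaa1a 0.209 and 0.761. Whether the 2 correlations of a gene differ was not tested. Over all 22 rats the slope of Acox2 on Slc34a1 was 0.74 (SE 0.24, edgeR adjusted p = 0.0405). Its slope on Kap was 0.53 (SE 0.075, edgeR adjusted p = 1.96e-05).

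The upstream sequences are shown for the 5 genes whose correlation with Slc34a1 the permutation test called in the 17 rats, 4 positive and Acsl5 negative. RefSeq windows around the start in the rat assembly GRCr8 were matched by gene identifier for 30 of the 33 genes (not for Acadl, Decr1 and Acaa2), since the expression values were made on rn6. Each line gives the 250 bases before the start, 5′ to 3′ on the strand of the gene, in lower case with matches to the nuclear receptor half-site AGGTCA or the longer CAAAGGTCA, on either strand, in capitals. Slc27a2 lies at chr3:134257851-134258100 on the plus strand, Ehhadh at chr11:92746159-92746408 on the plus strand, Decr2 at chr10:15617437-15617686 on the minus strand, Acaa1a at chr8:127957231-127957480 on the plus strand and Acsl5 at chr1:264294601-264294850 on the plus strand.
Slc27a2: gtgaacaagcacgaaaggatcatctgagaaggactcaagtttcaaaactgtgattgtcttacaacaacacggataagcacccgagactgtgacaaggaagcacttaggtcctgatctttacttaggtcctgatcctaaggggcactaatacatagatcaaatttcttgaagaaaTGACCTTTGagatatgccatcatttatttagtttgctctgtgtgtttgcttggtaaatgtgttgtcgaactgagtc
Ehhadh: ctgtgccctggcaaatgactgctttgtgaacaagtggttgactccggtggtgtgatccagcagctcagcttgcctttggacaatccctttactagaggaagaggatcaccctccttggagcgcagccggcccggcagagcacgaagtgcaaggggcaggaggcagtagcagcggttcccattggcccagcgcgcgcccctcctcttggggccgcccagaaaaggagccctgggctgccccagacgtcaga
Decr2: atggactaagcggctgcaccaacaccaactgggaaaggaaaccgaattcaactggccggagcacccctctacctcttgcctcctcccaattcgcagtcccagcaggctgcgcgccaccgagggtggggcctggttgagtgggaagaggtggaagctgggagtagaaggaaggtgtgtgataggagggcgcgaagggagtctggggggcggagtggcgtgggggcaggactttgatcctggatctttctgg
Acaa1a: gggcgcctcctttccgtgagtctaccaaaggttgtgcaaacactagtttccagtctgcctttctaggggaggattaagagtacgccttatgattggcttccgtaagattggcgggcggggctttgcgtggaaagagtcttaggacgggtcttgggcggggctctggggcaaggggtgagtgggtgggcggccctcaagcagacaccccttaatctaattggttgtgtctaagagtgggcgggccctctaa
Acsl5: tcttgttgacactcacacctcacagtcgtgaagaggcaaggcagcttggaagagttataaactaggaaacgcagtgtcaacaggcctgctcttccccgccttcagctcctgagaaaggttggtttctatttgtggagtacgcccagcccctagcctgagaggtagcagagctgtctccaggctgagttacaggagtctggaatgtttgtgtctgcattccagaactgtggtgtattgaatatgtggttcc

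Of these 5, Slc27a2 alone held a match. CAAAGGTCA stood there in reverse orientation 76 to 68 bases before the start, and its last 6 letters are the AGGTCA match. Windows of 300 bases, from 250 before to 50 after the start, were searched on both strands for all 27457 RefSeq entries. CAAAGGTCA was in 1 of the 30 windows of the pathway and in 0.379% of all windows, and AGGTCA in 8 of 30 (Acadvl, Hadhb, Echs1, Eci1, Hsd17b4, Acad11, Eci2 and Slc27a2) and in 15.7% of all. The DR1 repeat of the half-site was in 0 of 30 (0.412% of all), CAAAGTCCA in 0 (0.375%) and TCAAGGTCA in 0 (0.412%). A match is a description of these letters and not a binding site.

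The mean of the peroxisomal genes varied more between rats than that of the mitochondrial genes. The mean log2(TPM + 1) of the 7 peroxisomal genes spanned 1.12 log2 units over the 22 rats and that of the 18 mitochondrial genes 0.682. A mean over fewer genes can span more. The single genes of the classes overlapped. Their SD of log2 TPM ran from 0.208 (Acaa1a) to 0.686 (Acox2) for peroxisomal genes (median 0.287). It ran from 0.137 (Cpt2) to 0.409 (Acadm) for mitochondrial genes (median 0.230). The difference of the means, mitochondrial minus peroxisomal, was 1.72 ± 0.12 (SD, n = 6) in untreated rats, 1.64 ± 0.22 (n = 6) with i.p. ASC, 1.67 ± 0.17 (n = 6) with i.v. ASC and 1.48 ± 0.11 (n = 4) with CM. The CM rats, at 1.33, 1.47, 1.57 and 1.55, all lay below the lowest untreated rat (1.58), whereas both ASC groups overlapped the untreated rats. With the genes of both organelles counted as peroxisomal the CM mean was 1.34 and the untreated mean 1.55. Among the 5 rats highest in Kap the difference ran from 1.33 to 1.64, and among the other 17 from 1.47 to 1.96. No test was made on these means, since the genes were chosen with earlier results known.

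**Figure D5:**
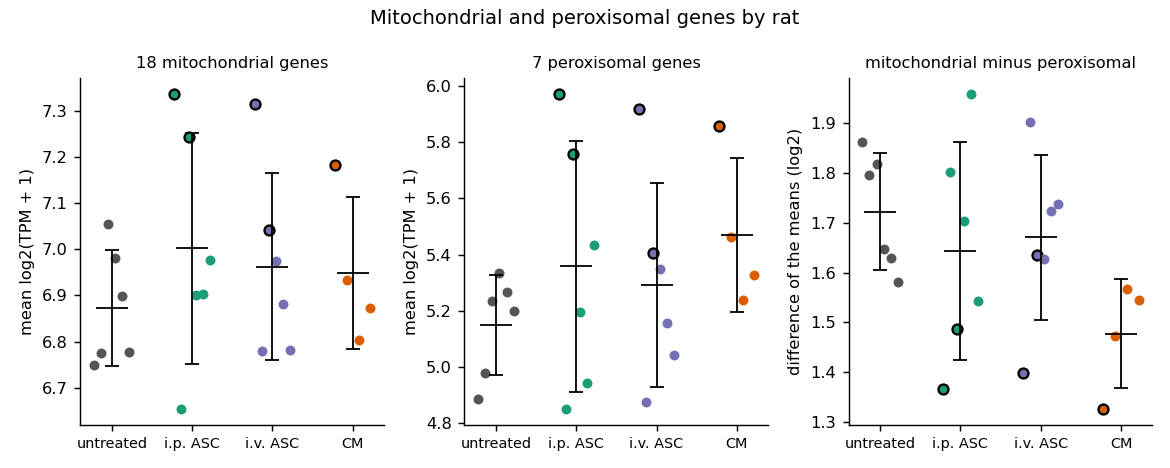
Mean log2(TPM + 1) of the 18 mitochondrial and 7 peroxisomal genes and their difference, 1 point per rat by group, ringed for the 5 rats highest in Kap, with bars at the mean ± SD (n = 6, 6, 6 and 4). The difference averages 1.72 in untreated and 1.48 in CM rats.

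The rest of the pathway was read from a list of 44 further genes, of which 41 were tested. None of the 41 was called between treated and untreated rats by edgeR, and 32, 29 and 31 had a fitted log2 fold change above 0 with i.p. ASC, i.v. ASC and CM (medians 0.16, 0.13 and 0.16). With Slc34a1, 19 of 41 rose and 1 fell (10.2% and 6.86% of all genes). Those that rose included Slc22a5, the carnitine importer of the cell membrane (slope 0.37, SE 0.061, edgeR adjusted p = 0.000719). The steepest slopes were those of Acot12, an acetyl-CoA thioesterase (1.14, SE 0.24, adjusted p = 0.00379), and Amacr, the racemase for branched chains (0.98, SE 0.19, adjusted p = 0.00247), and others that rose were Acadsb, Acad9, Acad10, Acaa1b, Hacl1, Abcd3, Acot1, Acot4, Acot8, Nudt7, Lonp2, Mlycd, Pcca and Oxct1, with slopes from 0.10 to 0.56. Acaa1b is a close paralog of Acaa1a, so how reads were divided between these genes is uncertain. Acot12 was at 0 to 1.84 TPM over the rats (median 0.742), so its slope rests on low values, and Amacr was at 23.9 to 209 TPM. In the 17 rats outside the 5 highest in Kap, 0 of the 41 genes rose and 0 fell (0.287% and 0.0388% of all genes). Among the smallest unadjusted p-values between groups were those of Amacr (log2 fold change 1.07, SE 0.50) with i.p. ASC, Phyh (0.34, SE 0.15) and Cpt1b (0.34, SE 0.17) with i.v. ASC, and Fabp3 (-0.35, SE 0.16) and Amacr (1.14, SE 0.54) with CM, at edgeR adjusted p-values of 0.771, 0.523 and 0.711.

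Of 17 regulators of the pathway 16 were tested, and none was called in the 3 comparisons. With Slc34a1, 5 of the 16 rose and 0 fell (10.2% and 6.86% of all genes). The nuclear receptor Hnf4a was at 48.8 to 209 TPM (slope 0.75, SE 0.14, edgeR adjusted p = 0.00139), with 116 to 209 TPM in the 5 rats highest in Kap and 48.8 to 132 TPM in the other 17. Ppara, the receptor that fatty acids activate, had a slope of 0.38 (SE 0.10, adjusted p = 0.0177) at 1.17 to 4.52 TPM. Prkaa2, a catalytic subunit of the energy sensor AMPK, had a slope of 0.43 (SE 0.093, adjusted p = 0.00427) and the corepressor Nrip1 0.14 (SE 0.041, adjusted p = 0.0249). Ppargc1a, the coactivator of mitochondrial biogenesis, was at 8.41 to 29.98 TPM with a slope of 0.049 (adjusted p = 0.809). In the 17 rats outside the 5 highest in Kap, 0 of the 16 regulators rose and 0 fell (0.287% and 0.0388% of all genes). Among the smallest unadjusted p-values between groups were those of Tfam (log2 fold change 0.16, SE 0.073) and Hnf4a (0.61, SE 0.39) with i.p. ASC (edgeR adjusted p = 0.771 for both), Pparg (1.92, SE 0.41, adjusted p = 0.169) and Ppargc1a (-0.49, SE 0.21, adjusted p = 0.523) with i.v. ASC, and Hnf4a (0.81, SE 0.43, adjusted p = 0.711) with CM. The i.v. ASC group held the 4 rats with urothelial genes, whose part in the value of Pparg was not tested.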

How the data were processed

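Total RNA of 22 left kidneys had been sequenced. The authors trimmed the reads and quantified transcripts by pseudoalignment to rn6; the submitters' processing notes name Trim Galore 0.6.4 and kallisto 0.4.6, and how transcripts were summed to genes is not given in the sources used here. The deposited values are estimated counts, of which 14.1% were not whole, and TPM, both per gene. Symbols were matched by Entrez identifier for 17179 of 17334 genes. Counts were rounded and tested with edgeR 4.0.16 (quasi-likelihood, TMM, all 4 groups in 1 fit, R 4.3.3), with Benjamini-Hochberg adjustment over 12867 genes. The slope fits added log2(Slc34a1 TPM + 1) to the groups. Correlations used log2(TPM + 1) and 100000 two-sided permutations, with 33 relations per marker adjusted over all genes. The scripts were tested on simulated data. Alternatives were DESeq2 1.42.0, limma 3.58.1, other scalings and filters, other markers and leaving out rats; those without the 5 rats highest in Kap, without the 4 rats with urothelial genes, with Kap and with Slc5a2 in the same fit were added after seeing the data.

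The genes, lists and tests were chosen with earlier results of these data known. Fold changes were given for the 3 genes with the smallest p in each comparison and for Cpt1a, Acadm and Ehhadh, relations for the 5 highest and 5 lowest correlations with Slc34a1, and further pathway genes where called or among the 2 smallest p; the slopes of Acox2, the Kap relations and the subunit ratios were named after their values were seen. The labels give each rat as a separate animal. With totals of 12195682 to 14734772 estimated counts per rat, all 33 genes passed the filter on low counts. Some further genes of the pathway that the rule names are not reported here.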

Additional observations from a re-analysis of the deposited data

Results flagged for a closer look

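In 6 cases a rat stood far from the others of its group, by the gap to the nearest rat relative to the whole range. Chance flags about 1 in 20 groups, and 140 groups were checked. Cpt1a was at 46.0 TPM in i.v. ASC rat 2 (72.2 to 86.5 in the others). CM rat 1 had 192 TPM of Hadha (160 to 164 in the others) and 225 TPM of Acat1 (177 to 182). Hsd17b4 was at 79.5 TPM in untreated rat 2 (101 to 113), Acad11 at 13.97 TPM in i.p. ASC rat 2 (22.4 to 28.0) and Slc27a2 at 38.5 TPM in untreated rat 1 (67.2 to 93.3).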

How the results depend on the processing

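No paired analysis was possible because each rat belongs to 1 group and the labels tie no rats of different groups together. The count of all genes past the threshold for i.v. ASC was 22 with DESeq2 and 0 to 14 when 1 rat was left out (11 without i.v. ASC rat 2, 14 without i.v. ASC rat 6). For CM it was 5 with DESeq2, 1 with only the 2 groups compared, 0 to 2 when 1 rat was left out (2 without i.v. ASC rat 3), 1 without the 5 rats highest in Kap and 1 without the 4 rats with urothelial genes. The median log2 fold change of the 33 genes was -0.0051 for i.p. ASC without the 5 rats and -0.072 for i.v. ASC without the 4 rats.

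Without the 5 rats the log2 fold change of Cpt1a was -0.045 (i.p. ASC), -0.14 (i.v. ASC) and -0.079 (CM), and of Ehhadh -0.070 (i.p. ASC) and -0.072 (i.v. ASC). Without the 4 rats the i.v. ASC values were -0.14 for Acadm, -0.22 for Acox2, -0.36 for Cpt1a and -0.33 for Ehhadh. Cpt1a for i.v. ASC was -0.10 by limma, -0.020 with Slc34a1 as covariate and -0.067 to 0.12 when 1 rat was left out; for CM it was -0.055, -0.13 and -0.090 to 0.11.

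The slope on Slc34a1 called 2198 genes in all, 805 to 2808 when 1 rat was left out (805 without i.v. ASC rat 1, 1343 without i.p. ASC rat 1), 42 without the 5 rats, 303 without the 4 rats, 4707 with Lrp2, 3447 with Slc5a2 and 4166 with Kap in its place, and 3721 with Slc5a2 in the same fit. Of the 33 genes it called 10 to 27 when 1 rat was left out, with 9 to 26 rising, 1 (1 rising) without the 5 rats, 5 (4 rising) without the 4 rats and 14 (0 rising) with Slc5a2. With Slc5a2 the slopes were -0.070 for Acaa1a, -0.17 for Crat, -0.11 for Decr2, -0.28 for Ehhadh and -0.40 for Slc27a2, and the median correlation was -0.18. With Kap they were -0.0013 for Acaa2, -0.018 for Acsl3 and -0.0019 for Acsl4. Acsl4 was -0.0047 by limma and -0.0025 to 0.042 when 1 rat was left out. The organelle difference was 1.55 in untreated and 1.34 in CM rats with the genes of both organelles as peroxisomal. As a median over genes it was 1.85 with i.v. ASC and 1.66 with CM, a measure unlike the difference of means. The untreated value on that measure is not given here. The cause of these changes was not tested.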
